A study of Mus musculus with 13 samples.

Results

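The genes described here are those whose symbol begins with Nduf, which names the nuclear-encoded subunits of respiratory complex I and some of its assembly factors. They were found by symbol in the platform's probe annotation: 88 probe sets carry a single such symbol, and they stand for 44 genes of the 18193 named genes on the array. Of the 44 genes, 22 have 1 probe set and 22 have several, up to 6. The probe set with the highest mean over all 13 arrays represents each gene, and the others are given beside it. A further 10 probe sets list an Nduf gene together with another gene and were left out, so Ndufs6 and Ndufa11 are not analysed here.

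RNA came from 1 brain hemisphere of male C3HeB/FeJ mice, an inbred strain. For 6 months, 6 creatine-fed mice had 1% creatine in their pellets, and 7 untreated mice had equicaloric pellets that lacked it. Mice were 10 to 12 weeks old when feeding began. The comparison asks which brain transcripts differ after long creatine feeding. Replicates are called biological in the labels, and each was taken as a separate mouse.

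Complex I takes electrons from NADH, passes them through iron-sulfur clusters to ubiquinone, and pumps protons across the inner mitochondrial membrane. Its peripheral arm, which reaches into the matrix, holds the redox centres, and its membrane arm holds the pumps. The core subunits of the membrane arm are encoded by mitochondrial DNA, while Nduf genes encode the core subunits of the matrix arm, the accessory subunits of both arms and chaperones that join the pieces. In brain, most ATP for ion pumping and synaptic transmission depends on this chain. Creatine kinases buffer that ATP, which is the link between the diet and this gene family.

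Each array gave 1 intensity per probe set on a linear scale, with array medians from 37 to 45. Neuronal markers were bright in every mouse: the intensities of 7 markers summed to 23032 to 26611 in creatine-fed mice and 24259 to 26297 in untreated mice. Untreated replicate 3 stood apart, with a sum of 1745 over 5 cerebellar markers, against 4475 to 12625 in the others. It had the highest sum over 3 olfactory bulb markers, 545. Creatine-fed replicate 2 and untreated replicate 3 were also left out together, since earlier results of these data had set them apart. In whole tissue, fewer cells of a type and less RNA per cell cannot be told apart.

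No Nduf gene differed between creatine-fed and untreated mice by the test used, which was limma on log2(intensity + 16) over all 45037 probe sets with Benjamini-Hochberg adjustment. The count was 0 of 44 genes and 0 of 88 probe sets at an adjusted p under 0.05, where 0.00888% of all probe sets passed, and 0.00550% of named genes at their brightest probe sets. The smallest adjusted p of the 44 genes was 0.215. At an unadjusted p under 0.05, 3 of 44 genes were called, 2 higher and 1 lower, against 11.2% of all named genes at their brightest probe sets. Of those genes, 3.58% were higher and 7.61% lower. Over the 88 Nduf probe sets the count was 7, 5 higher and 2 lower, where 11.9% of all probe sets met the rule, 4.17% higher and 7.70% lower. The difference in rate was not tested.

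The family's differences were small and of both signs. Of the 44 genes, 21 had higher and 23 lower means in creatine-fed mice, with a median log2 difference of -0.0032. Over all named genes the median was -0.03 and 58.5% were lower. Of the 44 genes, 43 were in the brighter part of the array. Over the named genes there the median was -0.01 and 54.2% were lower. Differences ran from -0.32 at Ndufb4 to 0.25 at Ndufaf4. The direction of the family is not settled, since centring each array on its median log2 value moved its median to 0.049 and left 12 lower. The median then became 0.02 over all named genes and 0.04 over the brighter ones, of which 36% were lower.

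The arrays bounded these differences closely. The 95% interval of the log2 difference, unadjusted and from the same fit, lay within a 1.25-fold change either way for 40 of 44 genes and within 1.5-fold for all 44. Among all named genes 48.4% had an interval within 1.25-fold, and 68.8% of those in the brighter part of the array did. The genes with wider intervals were Ndufs8, Ndufb4, Ndufaf4 and Ndufa4l2. The within-group SD of the log2 values had a median of 0.08 over the 44 genes, against 0.14 over the brighter named genes. Such intervals refer to each array's own scale, because a change common to all transcripts would be lost in scaling. They are also on the scale with the offset, which understates the change of dim genes.

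**Figure D1:**
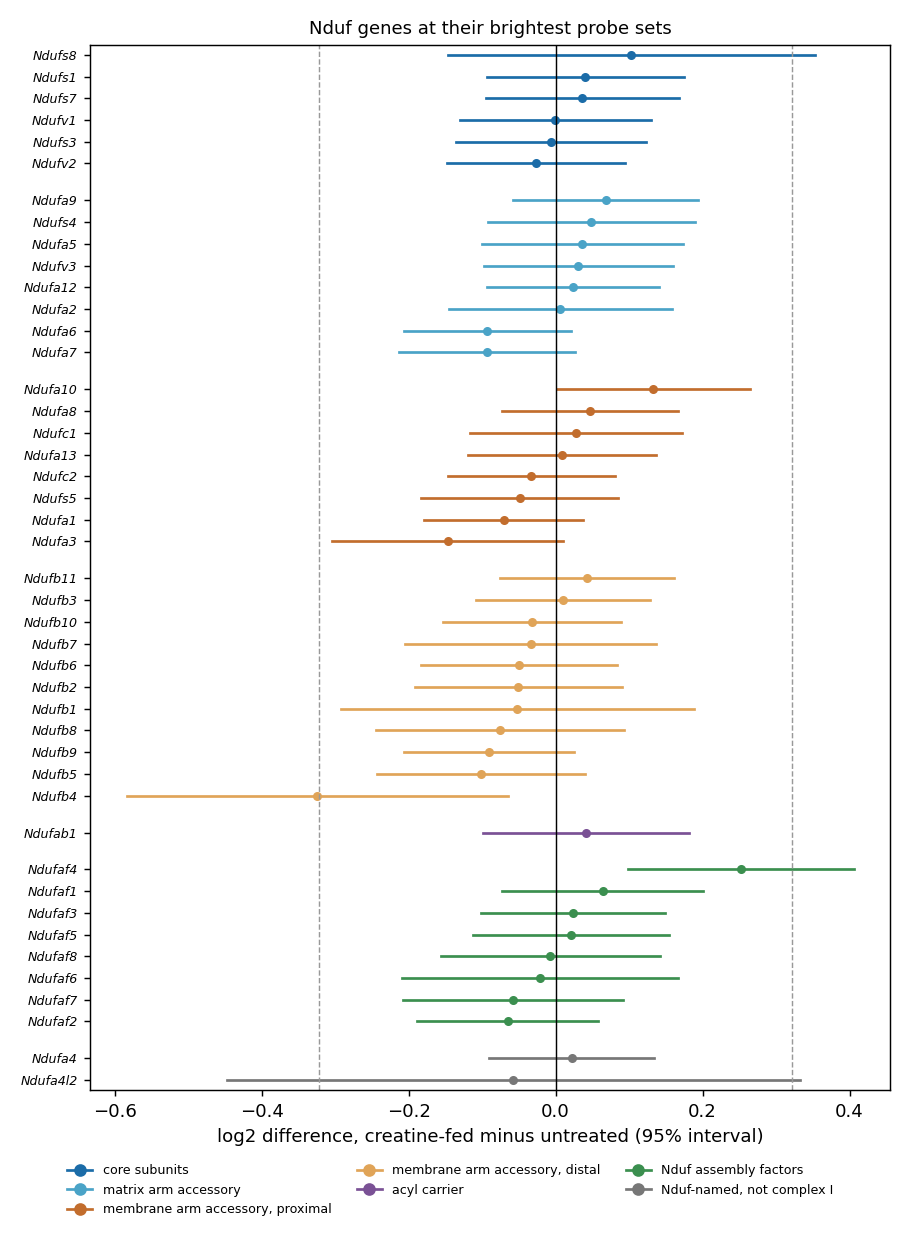
Log2 difference, creatine-fed minus untreated, of 44 Nduf genes at their brightest probe sets (points) with 95% intervals (lines), grouped and coloured by role; dashed lines mark a 1.25-fold change. The intervals of 40 genes lie between the dashed lines, and Ndufaf4 and Ndufb4 have the differences farthest from 0.

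Promoters were looked at for what the genes share. RefSeq windows on GRCm38.p6, running from 250 bases before to 50 after each start, were found for 39 of the 44 genes, 41 windows in all. They held a median of 59.7% G and C, against 52.7% over all 32851 windows and 58.3% over the 18009 windows of named genes on the array. The median count of CpG, a C followed by G, was 21 per window, against 7 over all windows and 16 over those of array genes. Both strands were searched for 4 motifs of factors known to act on nuclear genes of the respiratory chain, allowing no mismatch. The motif of nuclear respiratory factor 1 (NRF1) left 1 base free. It occurred in 8 of 41 windows (19.5%), against 4.6% of all windows and 7.45% of those of array genes. Both windows of Ndufa5 overlap and hold the same match. By gene the count was 7 of 39 (17.9%), against 5.19% of all genes with windows and 8.63% of array genes. This motif reads alike on both strands only where the free base is T, as in the windows of Ndufaf4 and Ndufaf5. Such a match was counted once per window. AAGATGGCG, a site of the zinc finger protein YY1, occurred in 5 windows (12.2%), against 1.4% and 2.1%. CCGGAAGT, a site of the ETS factor GABP, was in 1 window (2.44%), that of Ndufs3, against 3.89% of all windows and 5.86% of those of array genes. TCAAGGTCA, a site of the estrogen-related receptors, was in none, against 0.423% and 0.344%. Matches of different motifs did not share a window. These matches describe letters only, and windows were not tested for enrichment.

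The NRF1 motif lay in windows of Ndufa5, Ndufa6, Ndufa8, Ndufs5, Ndufb4, Ndufaf4 and Ndufaf5. Its matches ran from 191 bases before the start to position 24 after it. The YY1 motif lay in windows of Ndufs7, Ndufs4, Ndufa9, Ndufc1 and Ndufaf8, on the strand of the gene in each, and began between 11 and 36 bases after the start. The windows printed are those of Ndufaf4, the gene farthest above 0, Ndufs7, a core subunit with the YY1 motif, and Ndufa1, the one gene whose groups did not overlap, with no match. Capitals mark motif matches. They are chr4:24897833-24898132 on the plus strand, chr10:80249199-80249498 on the plus strand and chrX:37191189-37191488 on the minus strand.
Ndufaf4: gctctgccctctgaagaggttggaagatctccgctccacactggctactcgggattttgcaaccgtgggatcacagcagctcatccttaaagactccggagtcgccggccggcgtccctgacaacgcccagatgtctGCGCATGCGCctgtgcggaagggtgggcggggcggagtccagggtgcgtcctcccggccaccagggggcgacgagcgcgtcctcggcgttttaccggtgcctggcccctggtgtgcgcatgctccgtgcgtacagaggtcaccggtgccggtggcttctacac
Ndufs7: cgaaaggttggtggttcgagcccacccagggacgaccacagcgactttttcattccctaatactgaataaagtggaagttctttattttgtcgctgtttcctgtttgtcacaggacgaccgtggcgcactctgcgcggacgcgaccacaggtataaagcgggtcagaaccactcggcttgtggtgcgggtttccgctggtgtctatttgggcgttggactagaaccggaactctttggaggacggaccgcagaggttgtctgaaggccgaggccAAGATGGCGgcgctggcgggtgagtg
Ndufa1: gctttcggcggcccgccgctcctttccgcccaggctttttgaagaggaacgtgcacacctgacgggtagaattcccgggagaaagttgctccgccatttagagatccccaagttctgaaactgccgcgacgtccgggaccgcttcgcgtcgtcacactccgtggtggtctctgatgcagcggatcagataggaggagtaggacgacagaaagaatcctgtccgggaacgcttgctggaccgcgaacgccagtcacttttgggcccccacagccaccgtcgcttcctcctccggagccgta

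The core subunits of the matrix arm carry the flavin and the iron-sulfur clusters. Of 7 listed, 6 were measured, 3 with higher and 3 with lower means, and their log2 differences ran from -0.03 to 0.10. Ndufv1, which binds NADH and the flavin, read 1733, 1767.5 and 2021 as lowest, median and highest in creatine-fed mice, against 1705, 1816 and 1943 in untreated mice. Group means were 1810 ± 111 and 1809 ± 85.4 (SD, n = 6 and 7), with a 95% interval of the log2 difference from -0.13 to 0.13. The groups overlapped almost fully, and no other member had means as close.

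Ndufv2, its partner with an iron-sulfur cluster of its own, read 2140, 2218.5 and 2417 in creatine-fed mice, against 2184, 2277 and 2440 in untreated mice (log2 difference -0.03, 95% interval -0.15 to 0.09). Ndufs1, the largest core subunit, read 1097, 1212 and 1261 in creatine-fed mice, against 1061, 1171 and 1233 in untreated mice (0.04, -0.09 to 0.17). For both genes the ranges overlapped nearly throughout. Ndufs3, a core subunit without a cluster, read 1480, 1597 and 1682 in creatine-fed mice, against 1492, 1569 and 1756 in untreated mice (-0.0062, -0.14 to 0.12). Ndufs7, which holds the last cluster before ubiquinone, read 1418, 1587.5 and 1712 in creatine-fed mice, against 1431, 1518 and 1629 in untreated mice (0.04, -0.09 to 0.17). Again the groups overlapped. Over 23 alternatives the sign turned in 6 for Ndufs3, in 1 each for Ndufs7 and Ndufv2, and in 0 for Ndufs1.

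Ndufs8, a core subunit with a pair of iron-sulfur clusters, differed from probe set to probe set. At its brightest probe set, 1423907_a_at, it read 1986, 2285.5 and 3293 in creatine-fed mice, against 2055, 2153 and 2977 in untreated mice (log2 difference 0.10 ± 0.12, SE; adjusted p = 0.78). The high values were replicate 2 of each group, and no other array passed 2502. Without creatine-fed replicate 2 the difference was 0.01, and without untreated replicate 2 it was 0.17. At 1434579_x_at Ndufs8 read 2083, 2336 and 2437 in creatine-fed mice, against 1763, 1989 and 2205 in untreated mice (0.22 ± 0.07, adjusted p = 0.232). At 1455283_x_at it read 2092, 2342 and 2369, against 1981, 2063 and 2217 in untreated mice (0.14 ± 0.06, adjusted p = 0.338). At both of these, 5 creatine-fed mice lay above every untreated mouse. In these the replicate 2 arrays were not high, and the suffix x marks probes that can match other transcripts too. The 3 dimmer probe sets of Ndufs8 differed by 0.02 at 1434213_x_at, -0.09 at 1423908_at and -0.26 at 1434212_at.

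Accessory subunits of the matrix arm numbered 8 measured of 9 listed, with 6 higher and 2 lower means and log2 differences from -0.09 to 0.07. Ndufa9, which binds a nucleotide near the quinone site, read 1167, 1290 and 1354 in creatine-fed mice, against 1149, 1232 and 1303 in untreated mice (log2 difference 0.07 ± 0.06, SE; adjusted p = 0.697). Ndufa6, a LYR-motif subunit that holds an acyl carrier protein, read 1048, 1124 and 1165 in creatine-fed mice, against 1125, 1190 and 1219 in untreated mice (-0.09 ± 0.05, adjusted p = 0.526). All 6 creatine-fed mice lay under the untreated mean of Ndufa6, though the ranges overlapped.

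Ndufa7 read 1587, 1665 and 1810 in creatine-fed mice, against 1725, 1807 and 1842 in untreated mice (-0.09 ± 0.06, adjusted p = 0.55). All 5 of its probe sets had lower means in creatine-fed mice, by -0.06 to -0.12 on the log2 scale. Ndufs4, whose loss in mice causes a fatal brain disease and which closes the assembly of the NADH-binding module, averaged 644 ± 37.1 in creatine-fed mice and 622 ± 45.8 in untreated mice (0.05). The other members of the group differed by 0.04 for Ndufa5, 0.03 for Ndufv3, 0.02 for Ndufa12 and 0.0066 for Ndufa2.

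In the membrane arm next to the matrix arm, 8 of 9 listed subunits were measured, 4 with higher and 4 with lower means, from -0.15 to 0.13 on the log2 scale. Ndufa10, a subunit with a nucleoside kinase fold, read 1909, 1948.5 and 2008 in creatine-fed mice, against 1617, 1748 and 1974 in untreated mice (0.13 ± 0.06, adjusted p = 0.411). All 6 creatine-fed mice were above the untreated mean and 6 of 7 untreated mice were below every creatine-fed mouse. A second, dim probe set, 1418068_at, differed by 0.02. Ndufa3, a small membrane-spanning subunit, read 2550, 2639 and 2999 in creatine-fed mice, against 2599, 3090 and 3252 in untreated mice (-0.15 ± 0.07, adjusted p = 0.46). Creatine-fed mice were all below its untreated mean, while untreated replicates 1 and 2 fell among them. That probe set, 1452790_x_at, has the suffix x, and at the next brightest, 1428464_at, Ndufa3 differed by -0.05.

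Ndufa1, a short subunit with 1 membrane span that is encoded on the X chromosome, was singled out after its values were seen, because it was the one gene of 44 whose groups did not overlap. It read 3660, 3710 and 3758 in creatine-fed mice, against 3767, 3853 and 4066 in untreated mice (-0.07 ± 0.05, adjusted p = 0.624). Groups did not overlap at 0.649% of named genes at their brightest probe sets, and at 0.560% of all probe sets. Ndufa8, a disulfide-bonded subunit facing the intermembrane space, read 1576, 1643.5 and 1766 in creatine-fed mice, against 1555, 1601 and 1722 in untreated mice (0.05 ± 0.06, adjusted p = 0.795). Of the rest, Ndufa13, also called GRIM-19, differed by 0.0093, Ndufc1 by 0.03, Ndufc2 by -0.03 and Ndufs5 by -0.05.

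The distal membrane arm, which holds the outer proton pumps, had lower means in 9 of 11 subunits, with a median log2 difference of -0.05. Of the brighter named genes 54.2% were lower. After centring each array on its median, 5 of 11 were lower, against 36% of those genes, and the group's median was 0.0013. With quantile normalization 10 of 11 were lower, against 52.6%, and the group's median was -0.06. The difference in share was not tested. Ndufb9, a LYR-motif subunit that holds the other acyl carrier protein, read 2969, 3127.5 and 3394 in creatine-fed mice, against 3247, 3383 and 3448 in untreated mice (-0.09 ± 0.05, SE; adjusted p = 0.547). Its next brightest probe set, 1436803_a_at, differed by -0.0079. Ndufb5 read 1919, 2040 and 2273 in creatine-fed mice, against 2050, 2210 and 2433 in untreated mice (-0.10 ± 0.07, adjusted p = 0.581). At 1417102_a_at Ndufb5 averaged 1744 ± 114 in creatine-fed mice and 1931 ± 58.1 in untreated mice (-0.15 ± 0.06, adjusted p = 0.348), so both of its probe sets had lower means.

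Ndufb4 had the widest difference below 0 but was read only by a dim probe set, 1432427_at, below the median of its array in every mouse. It read 9, 13.5 and 23 in creatine-fed mice, against 15, 22 and 31 in untreated mice (-0.32 ± 0.12, adjusted p = 0.315). Such values are close to the offset, and the difference was -0.60 with an offset of 1 and -0.16 with an offset of 50. Other members with lower means were Ndufb8 (-0.08), Ndufb1 (-0.05), Ndufb2 (-0.05), Ndufb6 (-0.05), Ndufb7 (-0.03) and Ndufb10 (-0.03). Ndufb11, also X-linked, and Ndufb3 had higher means, by 0.04 and 0.0098. Ndufab1, the mitochondrial acyl carrier protein itself, sits in both arms and read 1700 ± 129 in creatine-fed mice and 1650 ± 85.8 in untreated mice (0.04).

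**Figure D2:**
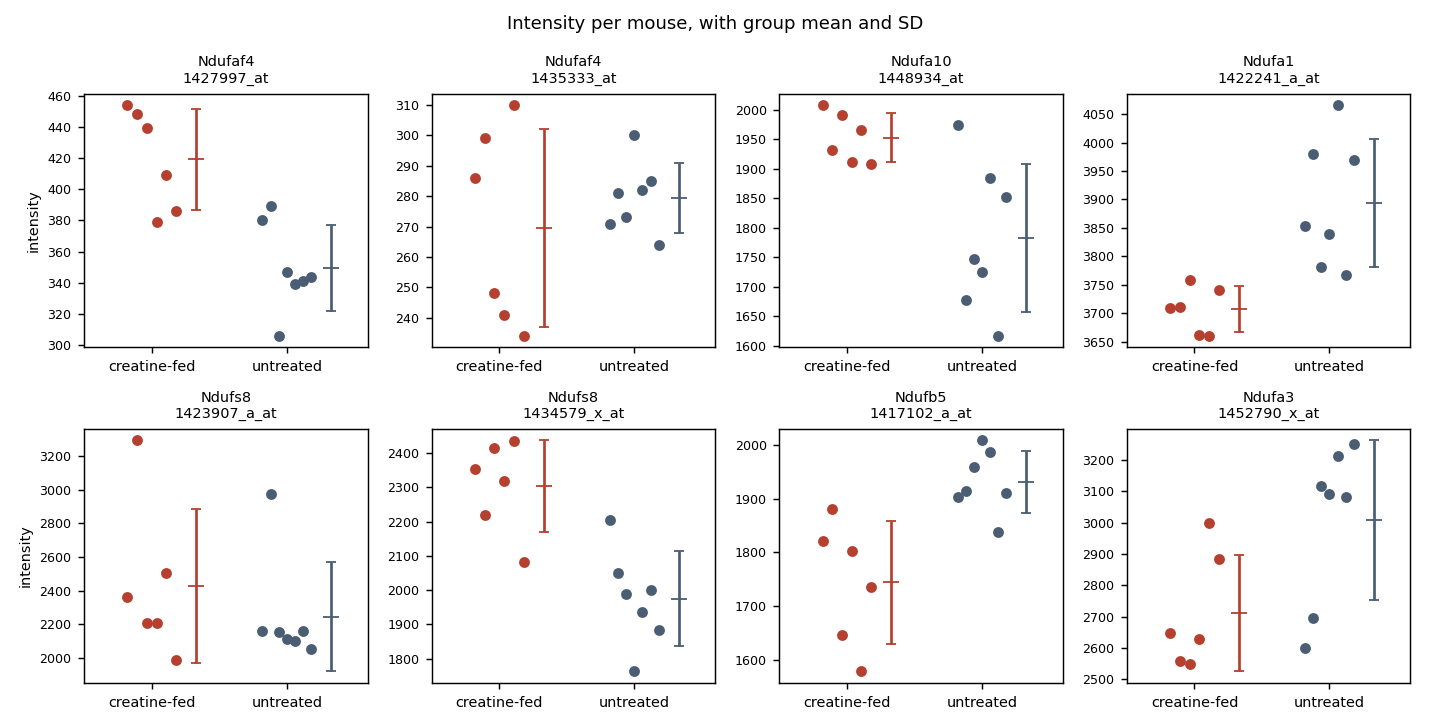
Intensity per mouse (linear scale; axes do not start at 0) in creatine-fed mice (red, left) and untreated mice (grey, right), with the group mean and SD beside the points, for 8 probe sets of 6 Nduf genes. Ndufa1 is the only one of the 8 whose groups do not overlap, and the 2 highest points at the brightest Ndufs8 probe set are replicate 2 of each group.

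Assembly factors bind unfinished parts of complex I and leave before it is complete. All 8 Ndufaf genes were measured, 4 with higher and 4 with lower means. Ndufaf4, which acts with Ndufaf3 on the early quinone-binding part, had the smallest p of the family. At 1427997_at Ndufaf4 read 379, 424 and 454 in creatine-fed mice, against 306, 344 and 389 in untreated mice (log2 difference 0.25 ± 0.07, SE; 95% interval 0.10 to 0.41; adjusted p = 0.215). All 6 creatine-fed mice were above the untreated mean, and untreated replicates 1 and 2, at 380 and 389, reached the lower creatine-fed values. Adjusted p ran from 0.0854 to 0.361 over the alternatives, and none passed.

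The other probe set of Ndufaf4, 1435333_at, did not follow. It averaged 270 ± 32.6 in creatine-fed mice and 279 ± 11.6 in untreated mice (-0.06). Ndufaf3 itself differed by 0.02. Ndufaf1, a factor of the intermediate that forms the membrane arm, read 242, 255 and 275 in creatine-fed mice, against 217, 253 and 259 in untreated mice (0.06 ± 0.06, adjusted p = 0.743). Ndufaf2, a late chaperone of the NADH-binding module, averaged 186 ± 6.95 in creatine-fed mice and 196 ± 11.1 in untreated mice (-0.07), with all 6 creatine-fed mice below the untreated mean. Differences were 0.02 for Ndufaf5, which hydroxylates Ndufs7, -0.0070 for its partner Ndufaf8, -0.06 for Ndufaf7, a protein arginine methyltransferase, and -0.02 for Ndufaf6.

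Ndufa4 and Ndufa4l2 carry the family's name but are not complex I subunits. Ndufa4, now placed in complex IV, averaged 2919 ± 72.8 in creatine-fed mice and 2876 ± 103 in untreated mice (0.02). Ndufa4l2, its hypoxia-induced relative, was dim at 40.8 ± 5.88 in creatine-fed mice and 45.3 ± 17.3 in untreated mice (-0.06). Its lowest value, 16, was that of untreated replicate 3. Without this pair of genes the median of the remaining 42 was still -0.0032.

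Probe sets of the same gene often disagreed in sign, at differences this small. Of 44 further probe sets, 16 had the opposite sign to the brightest one and 14 had a mean under 100. Among the 22 genes with several probe sets, all of them were higher in 3 genes, all lower in 7 and of both signs in 12. Among bright probe sets the opposite sign was seen at 1451312_at of Ndufs7 (-0.03), 1415966_a_at of Ndufv1 (0.02), 1438159_x_at of Ndufv2 (0.11), 1455806_x_at and 1418814_s_at of Ndufa12 (-0.03 and -0.09), 1416057_at of Ndufb11 (-0.06) and 1434057_at of Ndufb6 (0.02).

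Dim probe sets of the opposite sign were 1438166_x_at of Ndufs4 (-0.09), 1431670_at of Ndufc2 (0.10), 1458404_at of Ndufb8 (0.0082), and 1435934_at, 1453565_at and 1458678_at of Ndufab1 (-0.17, -0.19 and -0.13). Further probe sets of the same sign but smaller p included 1416366_at of Ndufc2 (-0.16), 1416834_x_at of Ndufb2 (-0.14), 1448003_at of Ndufaf8 (-0.14), 1418117_at and 1459760_at of Ndufs4 (0.12 and 0.23), 1428160_at of Ndufab1 (0.10), 1425919_at of Ndufa12 (0.09), 1455911_x_at of Ndufb11 (0.06), 1460506_s_at of Ndufc2 (-0.05), 1452692_a_at of Ndufv2 (-0.05) and 1456015_x_at of Ndufv1 (-0.01). None of these passed.

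**Figure D3:**
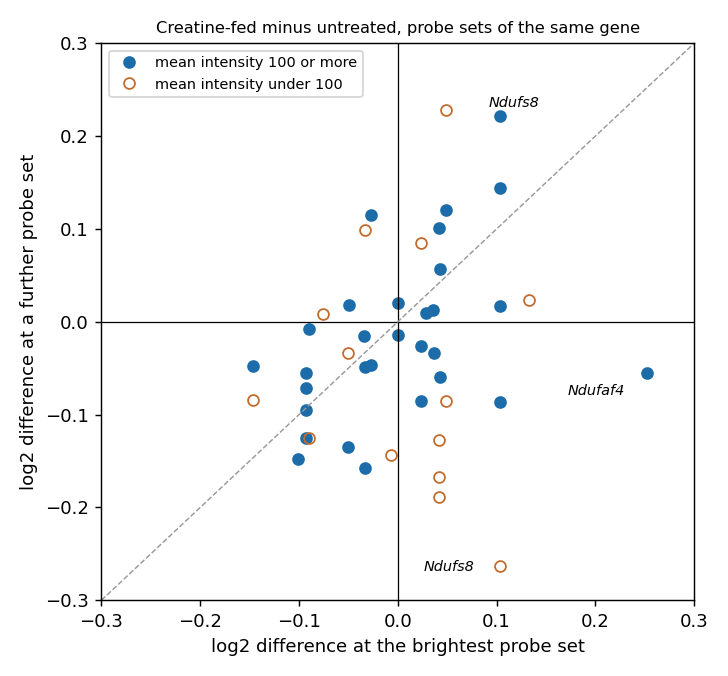
Log2 difference, creatine-fed minus untreated, at each of 44 further Nduf probe sets (y axis) against that at the brightest probe set of the same gene (x axis); open circles have a mean intensity under 100 and the dashed line marks equality. In 16 points the signs differ, Ndufaf4 and 2 dimmer Ndufs8 probe sets among them.

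Mouse by mouse, the family moved little. Each gene's deviation from its own mean over 13 mice was taken, and the median over the 44 genes ran from -0.07 to 0.03 in creatine-fed mice and from -0.03 to 0.04 in untreated mice on the log2 scale. Creatine-fed replicate 6 had the lowest median, with 14 of 44 genes above their mean, and untreated replicate 5 the highest, with 35 of 44. Untreated replicate 3, the array with low cerebellar markers, had the fewest genes above their mean, 12 of 44. The groups overlapped. With group means removed, the median Pearson correlation between pairs of members over the 13 arrays was 0.129 across 946 pairs, against 0.009 across pairs of the 11154 brighter named genes. All pairs share the same arrays and scaling, so this describes these mice only. The brighter named genes were not matched to the members in intensity. Ndufs3 (0.344), Ndufs7 (0.333) and Ndufb2 (0.321) had the highest median correlation with the other members, and Ndufaf3 the lowest (-0.229).

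**Figure D4:**
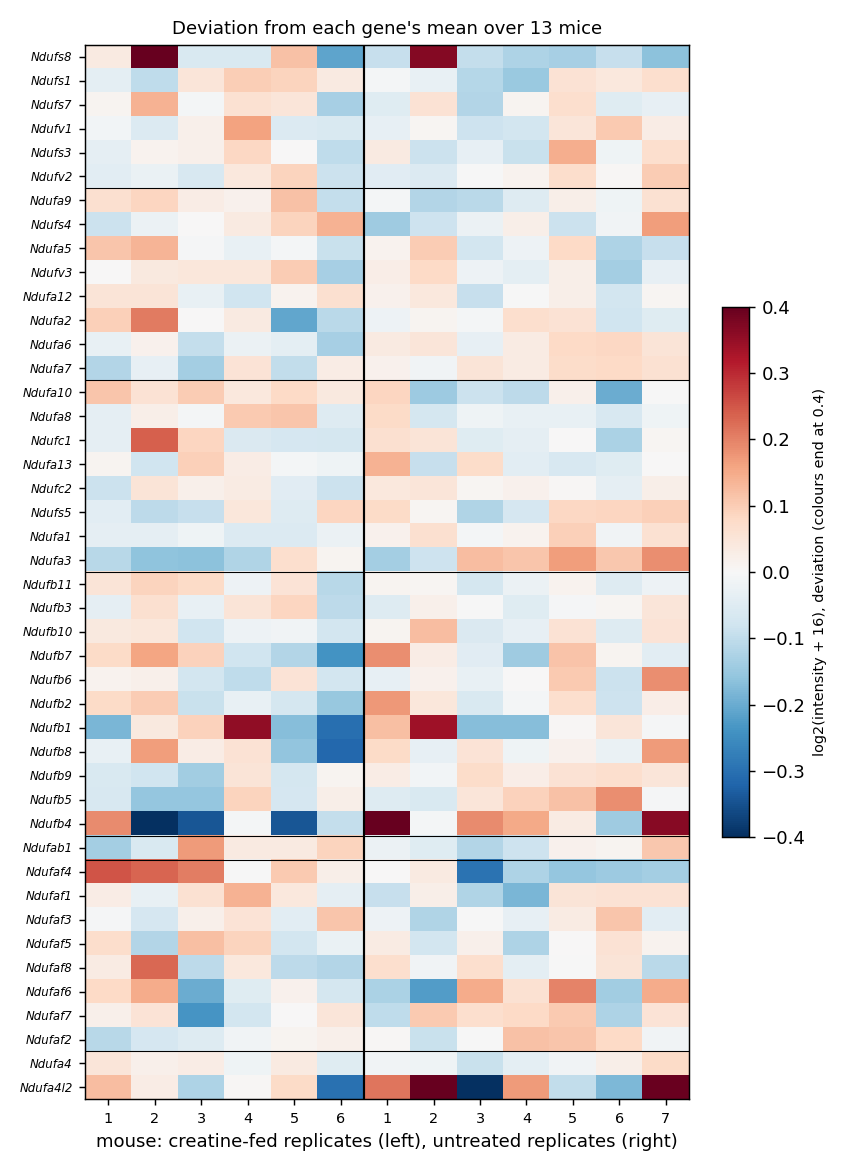
Deviation of each Nduf gene (rows, grouped by role) from its own mean over 13 mice, on the log2(intensity + 16) scale, in creatine-fed mice (left of the line) and untreated mice (right); colours end at 0.4 either way. Most cells are pale, and the strong colours include those of the dim Ndufb4 and Ndufa4l2, of Ndufb1, and of Ndufs8 in replicate 2 of each group.

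Beyond Nduf genes, ND5, the mitochondrially encoded core subunit and the only one of 7 such genes with a named probe set, read 9340 ± 1355 in creatine-fed mice and 8087 ± 736 in untreated mice (0.20, adjusted p = 0.432). Quantile normalization moved that log2 difference to 0.31 (adjusted p = 0.187) and centring each array on its median moved it to 0.25 (adjusted p = 0.385). Of 10 measured assembly factors with other names, none passed, and 4 had higher and 6 lower means. Dmac2, which helps to build the distal arm, differed by -0.13 and Tmem186, a partner of Ndufaf1, by -0.22. Subunits of complexes II to V were lower more evenly, with a median of -0.06. Lower means were seen in 31 of 38 measured, against 54.2% of the brighter named genes. After centring each array on its median the count was 21 of 38, against 36%, and with quantile normalization 26 of 38, against 52.6%. No member passed (smallest adjusted p = 0.344), and the difference between complex I and the other complexes was not tested. Cyc1 of complex III (-0.18), Cox8a of complex IV (-0.18) and Atp5b of complex V (-0.14) had the smallest p in their complexes.

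**Figure D5:**
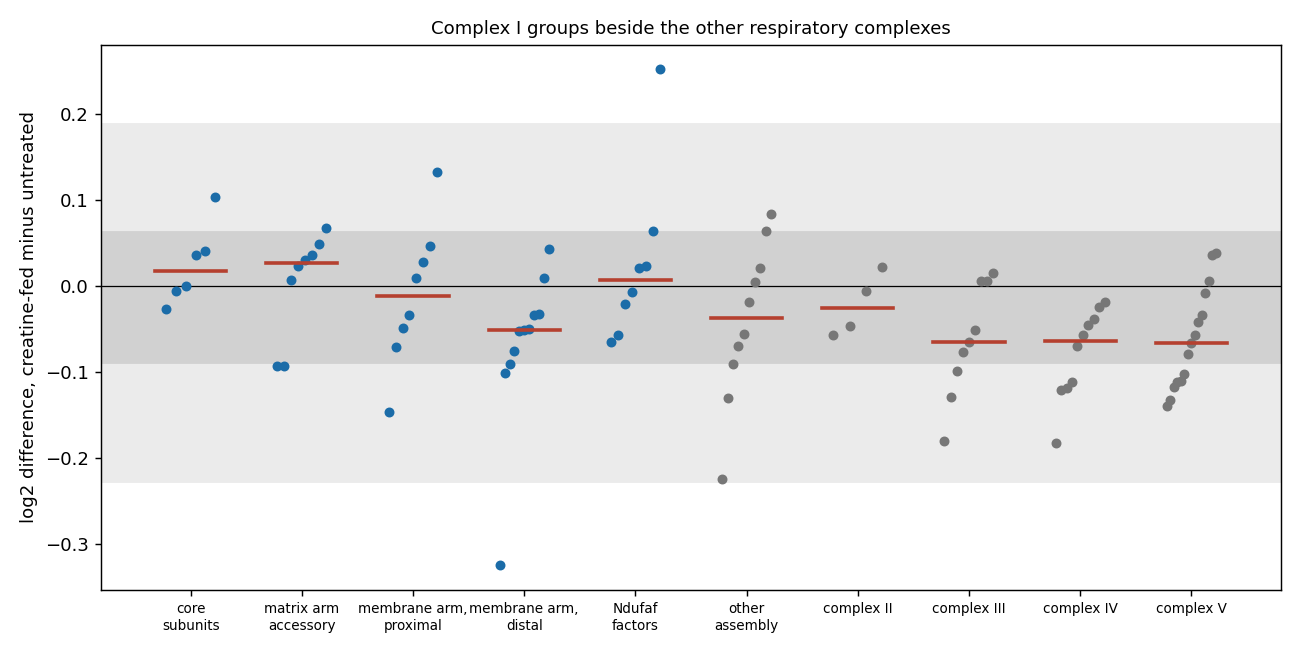
Log2 difference, creatine-fed minus untreated, for 5 groups of Nduf genes (blue) and for other complex I assembly factors and complexes II to V (grey); each point is a gene at its brightest probe set and red bars are medians. The dark band holds the central 50% and the light band the central 90% of the brighter named genes, and nearly all points lie inside the light band.

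Markers of other regions and cell types are given beside these values. Summed over 4 brainstem markers, intensity ran from 61 to 136 in creatine-fed mice and from 48 to 296 in untreated mice, and all 4 had lower means in creatine-fed mice. Among them Hoxb2 read below the median of every array. Oligodendrocyte markers summed to 13189 to 15244 in creatine-fed mice and 14351 to 18101 in untreated mice, with 3 of 4 lower. Cerebellar sums were 4475 to 9944 in creatine-fed mice and 1745 to 12625 in untreated mice. Of 2 blood cell markers, Hba-a1 averaged 5 in creatine-fed mice and 11 in untreated mice (-0.32). Its values also lay below the median of every array. The other, Alas2, averaged 92.2 in creatine-fed mice and 79.9 in untreated mice (0.12). No marker passed over all probe sets, and the part of these markers in any Nduf value was not tested.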

How the data were processed

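The table deposited by the authors gives the intensity of 45101 probe sets on each of 13 arrays, in whole numbers with zeros. Trimmed by 2% at either end, every array had a mean of 150.05, which has the form of a global scaling by the authors; the submitters' processing notes name RMA only, whose log2 output these intensities are not. The tool and target of that scaling were not given in the sources used here, and no second scaling was applied. Here 64 control probe sets were set aside and log2(intensity + 16) was fitted with limma 3.58.1 in R 4.3.3 (lmFit, eBayes; 2-sided, no covariates), with Benjamini-Hochberg adjustment over 45037 probe sets and a threshold of 0.05. Symbols, updated through Entrez IDs, left the members unchanged. The number of arrays limits precision, and no scan batch was known.

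Members and lists were chosen with earlier results of these data known. Genes named with ranges are the core subunits and the 6 per direction with the smallest p, plus Ndufa1, added after its values were seen; other members are given by means or differences. Further probe sets are named where their sign differs from the brightest or their p is smaller. The fit was tested on simulated data. Alternatives are in the closing section. The main fit did not pair the mice by replicate number. Of 6 same-numbered pairs, 1 deviated together (r over 0.1), that of replicate 2 (r = 0.146). Such correlations cannot settle whether the numbers pair the mice. Promoter windows are from RefSeq. Figures used matplotlib 3.10.9.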

Additional observations from a re-analysis of the deposited data

Results flagged for a closer look

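In 3 of 88 combinations of gene and group, 1 mouse lay far from the rest of its group by Dixon's ratio, where chance alone gives about 5%. Ndufs8 read 2977 in untreated replicate 2 at its brightest probe set, with the next mouse at 2161. Ndufv1 read 2021 in creatine-fed replicate 4, with the next at 1831. Ndufa8 read 1722 in untreated replicate 1, with the next at 1614.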

How the results depend on the processing

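No Nduf gene passed under any alternative run: offsets of 1 and 50, the 22535 brighter probe sets, quantile normalization, centring on array medians, the replicate block, the 3'/5' ratio as covariate, eBayes with trend and robust, array weights, averaging a gene's probe sets, updated symbols, leaving out Ndufa4 and Ndufa4l2, leaving out each mouse, and (chosen after seeing the data) leaving out creatine-fed replicate 2 and untreated replicate 3 together. Updated symbols left the members unchanged, and leaving out Ndufa4 and Ndufa4l2 kept the same fit, so neither could add a gene that passed. Single probe sets were counted under all of these but averaging, updated symbols and leaving out Ndufa4 and Ndufa4l2, and none passed. Leaving out that pair of arrays gave 27 lower means and a median of -0.0247, and the median over all named genes was then also -0.0247. Centring moved the median log2 difference of the 44 genes to 0.049 and the count of lower means to 12. With the replicate block the median was 0.0042 and 20 means were lower. Leaving out untreated replicate 7 gave the same values, since no creatine-fed mouse has its number and the block takes it up alone. Leaving out 1 mouse gave medians from -0.02 to 0.01 and 18 to 25 lower means. Signs turned for 4 core subunits near 0: with centring Ndufs3 was 0.046, Ndufv1 0.052 and Ndufv2 0.025; with the block Ndufs3 was 0.0045 and Ndufv1 0.0048; without that pair of arrays Ndufs7 was -0.0040; and without 1 mouse Ndufs3 ran from -0.0233 to 0.0173 and Ndufv1 from -0.0321 to 0.0172. Centring moves the log2 difference of every gene by the same amount. The turns with the block are those of leaving out untreated replicate 7. The cause of the turns under the remaining settings was not tested. Files hold no detection calls, so dim probe sets such as that of Ndufb4 cannot be told from background, and it has no value among the brighter probe sets.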
